A study of Mus musculus with 2 samples.

Results

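The genes described are 36 genes of fatty acid, sterol, phospholipid and neutral lipid metabolism, together with carriers and transporters of surfactant and cellular lipids. They were chosen by symbol, and all 36 were found among the 27998 genes of the deposited count matrices. Their levels were taken from 2 single-cell RNA libraries of mouse lung at postnatal day 10, made with the 10x Chromium 3′ kit from cells that had been sorted by FACS as epithelial, immune, endothelial or mesenchymal. The control library is labelled with the genotype control and with Nkx2-1. The mutant library is labelled with the genotype mutant and with Nkx2-1;Aqp5. The sources used here do not give the alleles carried by each group, the number of animals behind each library or the proportions in which the sorted populations were loaded. Nkx2-1 is a homeodomain regulator of lung epithelial identity, and the Aqp5 locus is known as a driver of recombination in alveolar type 1 (AT1) cells, which spread thinly over the gas exchange surface. The question behind the series is how Nkx2-1 acts in the formation and upkeep of these cells.

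In the alveolus, alveolar type 2 (AT2) cells build pulmonary surfactant, a film rich in saturated phosphatidylcholine. Fatty acids are made by Acly, Acaca and Fasn, desaturated and elongated by the Scd and Elovl enzymes, and joined to a glycerol and choline backbone. They are then remodelled by Lpcat1 and loaded into lamellar bodies by Abca3. Sterol regulatory element binding proteins, encoded by Srebf1 and Srebf2, are the textbook activators of fatty acid and sterol synthesis, and macrophages take up and recycle spent surfactant lipid.

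Depth differed between the libraries. There were 29862980 unique molecular identifiers (UMIs) over 4461 control barcodes (median 5943 each) and 47271104 over 4551 mutant barcodes (median 8305 each). After filters 4004 control and 4262 mutant cells were used. The libraries shared 27 barcodes. Each group was 1 library, so no difference between genotypes has a replicate check and no test over samples could be made. Levels are counts per 1000000 (CPM), the UMIs of a gene scaled to the summed UMIs of its cell class. Ranges in parentheses are exact 95% intervals, Poisson for a level and conditional binomial for a mutant over control ratio, and they cover counting error only. A gene was called apart when its ratio was at least 2-fold in either direction, among genes whose UMIs in the class came to 50 or more over the libraries.

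The mutant epithelium could not be matched to the control cell by cell, and every comparison in it carries that limit. Epithelial cells in no cluster named for AT2, club, ciliated, neuroendocrine or basal cells formed the AT1 compartment, with 543 control and 2237 mutant cells and median depths of 6416 and 12333 UMIs. Of the control cells, 510 lay in an AT1-like cluster (cluster 3) and 31 in a further AT1-like cluster (cluster 10). Of the mutant cells, 169 lay in cluster 10 and 2064 in clusters that took no cell type name and held 2 control cells in all. These unnamed clusters were led by Agr2, Lgals4 and Tff2 (cluster 2), by Sprr1a and Cdkn1a (cluster 5), by Kcne2, Sfn and Akap5 (cluster 6), by the cycling genes Top2a and Mki67 (cluster 7), or by Gpx2 (cluster 8). The sum of 12 AT1 markers was 41438 CPM in the control compartment and 3843 CPM in the mutant, and each of the 12 was lower in the mutant. Nkx2-1 stood at 481 CPM in control cluster 3, at 526 CPM (control) and 178 CPM (mutant) in cluster 10, and between 1.49 and 15.3 CPM in the unnamed mutant clusters. In AT2-like cluster 9, Nkx2-1 was at 311 CPM in control cells and 304 CPM in mutant cells. The sources used here do not say where the mutant allele lies relative to the 3′ reads, so these levels do not check the deletion.

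Free RNA was gauged from Sftpc, a surfactant protein gene of AT2 cells that endothelial cells lack. Sftpc stood at 2846 CPM in control and 218 CPM in mutant endothelial cells, which corresponds to 151 and 144 free UMIs per cell, or 3.44% and 2.72% of the median endothelial depth. The level that free RNA would give is stated below as the free level of a gene.

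In the AT1 compartment the lipid genes split, with high levels of Fabp5 on the mutant side and of Scd2, Lpcat1 and Chpt1 on the control side. Of the 36 genes, 34 passed the count filter, 7 were at least 2-fold higher in the mutant and 8 at least 2-fold lower. Over all 11694 genes tested in the compartment, 22.2% were at least 2-fold higher and 11.5% at least 2-fold lower. The median log2 ratio of the 34 genes was -0.25, against 0.15 over all genes. Gpam, with 3 control and 25 mutant UMIs, and Fabp4, with 1 and 8, did not pass. Elovl6, Pparg, Dgat2 and Abcg1 passed almost wholly through mutant UMIs, since the mutant compartment held 31114848 UMIs and the control compartment 3679970.

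**Figure D1:**
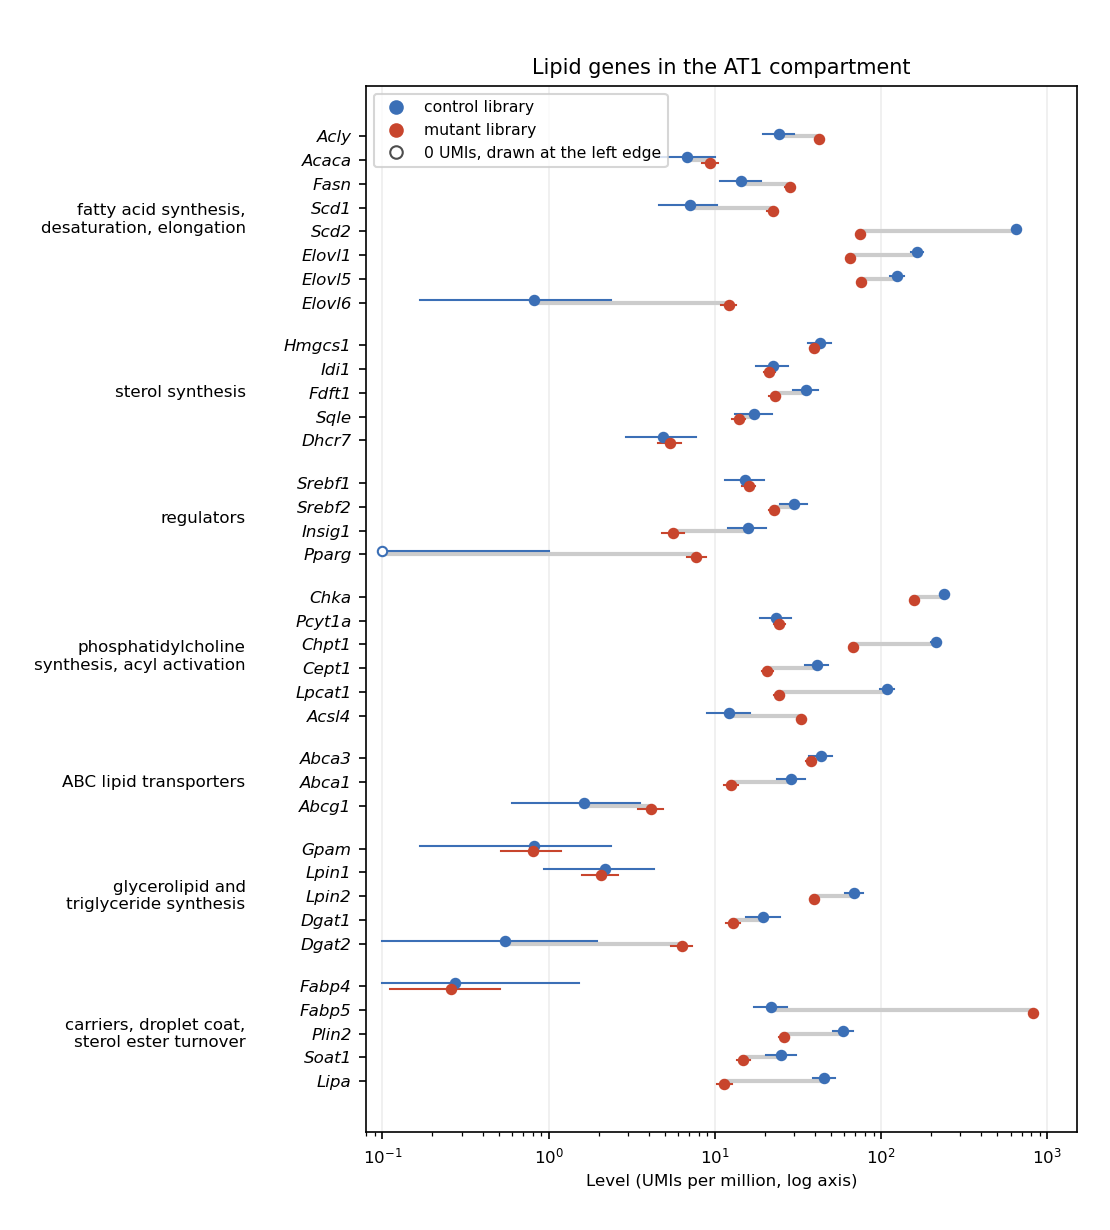
Levels of the 36 genes in the AT1 compartment in CPM on a log axis, grouped by role, with the control library and the mutant library as separate points and lines for exact 95% Poisson intervals; an open circle at the left edge marks 0 UMIs. Fabp5 lies far to the right in the mutant (824 against 21.7 CPM), while Scd2, Chpt1, Lpcat1 and Lipa lie to the right in the control.

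Among the 8 genes of fatty acid synthesis, desaturation and elongation, the largest difference was in Scd2, which encodes a stearoyl-CoA desaturase that makes monounsaturated fatty acids. Scd2 was at 645 CPM (620 to 672) in the control compartment and 74.6 CPM (71.6 to 77.7) in the mutant, 8.66-fold lower. Scd1, a second desaturase that lies beside it on chromosome 19 (mm10, chr19:44394455-44407879, minus strand; Scd2 at chr19:44293674-44306864, plus strand), stood the other way. Scd1 was at 7.07 CPM (4.62 to 10.4) in the control, where its free level was 5.27 CPM, and at 22.3 CPM (20.6 to 24.0) in the mutant, giving a ratio of 3.15 (2.13 to 4.86). This direction turned with the choice of cells, with a log2 ratio of 1.66 as given, -0.88 with doublets kept and -1.52 with each library clustered alone. Of the 693 mutant UMIs of Scd1, 263 came from the 169 cells of cluster 10, which also held 21742 CPM of Sftpc. The part of AT2 RNA in the Scd1 value was not tested. Elovl1, an elongase of very long chains, was 2.53-fold lower in the mutant, at 164 CPM in control cells and 65.0 CPM in mutant cells.

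Elovl6, the elongase that takes palmitate to stearate, had 3 UMIs in the control compartment (0.815 CPM, 0.168 to 2.38) and 377 in the mutant (12.1 CPM, 10.9 to 13.4), a ratio of 14.9 (5.05 to 72.4). All 3 control UMIs came from 1 cell, which lay in no AT1-like cluster. The intervals treat these UMIs as independent counts, so they are too narrow for the control level and the ratio. Genes of the core pathway were nearer to one another in the libraries. Fasn, fatty acid synthase, was at 14.4 CPM in control cells and 28.1 CPM in mutant cells, a ratio of 1.95 (1.48 to 2.63) that lies just under the 2-fold limit. Acly, which supplies cytosolic acetyl-CoA, was at 24.2 and 42.2 CPM, and Acaca, acetyl-CoA carboxylase, at 6.79 and 9.35 CPM. Elovl5, an elongase of polyunsaturated chains, was at 124 and 76.1 CPM. Since Scd2 dominated the sum of the 8 genes, that sum was 987 CPM in control cells and 330 CPM in mutant cells although 5 of the 8 were higher in the mutant.

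None of the 5 sterol synthesis genes was 2-fold apart, and 4 of the 5 were lower in the mutant. Hmgcs1, which makes the HMG-CoA from which sterols are built, was at 42.9 CPM (36.5 to 50.2) in control cells and 39.3 CPM (37.1 to 41.5) in mutant cells, a ratio of 0.915 (0.774 to 1.09). Fdft1, squalene synthase, showed the widest gap of the group, at 35.3 and 22.9 CPM (log2 ratio -0.63). Idi1, Sqle and Dhcr7, which act before and after squalene, had log2 ratios of -0.07, -0.30 and 0.13.

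Of the 4 regulators, Srebf1 was at 15.2 and 16.0 CPM and Srebf2 at 29.9 and 22.7 CPM. Insig1, which holds the precursor proteins of both in the endoplasmic reticulum, was 2.80-fold lower in the mutant, at 15.8 CPM in control cells and 5.62 CPM in mutant cells. Pparg, a nuclear receptor of lipid storage and of alveolar macrophages, had 0 control UMIs and 241 mutant UMIs (7.75 CPM, 6.80 to 8.79). With 3 counts over the control compartment as the floor, Pparg was at least 9.50-fold higher, and the exact 95% interval of the ratio began at 7.67. The alveolar macrophage markers summed to 9.78 CPM in control and 8.61 CPM in mutant cells of the compartment.

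The promoters of 27 of the 36 genes were found in RefSeq (GRCm38.p6), as windows from 250 bases before to 50 bases after each annotated start. Both strands were searched for TCACNCCAC, the form of the sterol regulatory element known from sterol genes, for CACGTG and CCAAT, which bind partners of these factors, and for CACTTG, a core of the Nkx2-1 site. None of these motifs contains another. TCACNCCAC was present in 1.24% of all 32851 promoters and in 4 of the 41 promoters (9.76%) of the genes described here, those of Hmgcs1, Pcyt1a (at 2 annotated starts) and Abca3. The 3 sites are shown as those of a sterol gene, a phosphatidylcholine gene and the surfactant transporter. All 3 genes had near-equal levels in the compartments of both libraries, as had Srebf1, Idi1 and Dhcr7, whose promoters lack this motif. A link between the motif and the levels was not tested. Capitals mark the motif within 59 bases of the plus strand.
Hmgcs1, chr13:119690189-119690247: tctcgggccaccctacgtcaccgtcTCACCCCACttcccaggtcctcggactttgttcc
Pcyt1a, chr16:32430780-32430838: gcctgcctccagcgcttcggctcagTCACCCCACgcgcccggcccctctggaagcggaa
Abca3, chr17:24351773-24351831: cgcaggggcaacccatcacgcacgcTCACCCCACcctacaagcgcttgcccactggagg
The motif starts 137 bases before the Hmgcs1 start, 116 or 215 bases before the Pcyt1a starts and 225 bases before the Abca3 start. CACGTG was present in 6 of the 41 promoters (14.6%, against 7.15% of all promoters) and CCAAT in 21 (51.2%, against 37.4%). CACTTG was present in 4 (9.76%, against 13.6%), those of Acaca, Dhcr7, Elovl1 and Lpin2. These are matches of letters and not measured binding.

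Among the 6 genes of phosphatidylcholine synthesis and acyl activation, Lpcat1 and Chpt1 were lower in the mutant compartment and Acsl4 was higher. Lpcat1 encodes the acyltransferase that remodels lysophosphatidylcholine into surfactant phosphatidylcholine. It was at 109 CPM (98.3 to 120) in the control, where its free level was 7.97 CPM, and at 24.4 CPM (22.7 to 26.2) in the mutant, 4.46-fold lower. Chpt1, which transfers phosphocholine to diacylglycerol in the last step of the pathway, was at 213 CPM (198 to 228) and 67.8 CPM (64.9 to 70.7), 3.14-fold lower. Its close relative Cept1 was at 41.0 and 20.7 CPM, a log2 ratio of -0.99 that lies just under the 2-fold limit. The enzymes of the earlier steps were less far apart. Chka, choline kinase, was at 240 CPM in control cells and 157 CPM in mutant cells, and Pcyt1a, the rate-limiting enzyme of the pathway, at 23.4 and 24.4 CPM. Acsl4, which activates arachidonate and related fatty acids, was at 12.2 CPM (8.92 to 16.4) in control cells and 33.1 CPM (31.1 to 35.2) in mutant cells, a ratio of 2.71 (2.01 to 3.73). Its log2 ratio of 1.44 fell under the 2-fold limit with doublets kept (0.69) and with each library clustered alone (0.43).

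The ABC transporters differed among themselves. Abca3, the lamellar body transporter, was at 43.2 CPM (36.8 to 50.5) in control cells and 37.6 CPM (35.5 to 39.9) in mutant cells, a ratio of 0.871 (0.737 to 1.03). Abca1, which exports cholesterol to lipid-poor apolipoproteins, was 2.30-fold lower in the mutant, at 28.8 and 12.5 CPM. Abcg1, a partner in sterol export, had 6 control and 128 mutant UMIs (1.63 and 4.11 CPM), a ratio of 2.52 (1.13 to 7.0).

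In glycerolipid and triglyceride synthesis, Dgat2 stood apart. This enzyme of the last step of triglyceride synthesis had 2 control UMIs (0.543 CPM) and 197 mutant UMIs (6.33 CPM), a ratio of 11.6 (3.18 to 96.9). Its counterpart Dgat1 was at 19.6 and 12.9 CPM. The phosphatidate phosphatases Lpin1 and Lpin2 were at 2.17 and 2.06 CPM and at 68.8 and 39.7 CPM.

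The carriers and droplet genes held the widest ratio of the set. Fabp5, an intracellular fatty acid binding protein, was at 21.7 CPM (17.2 to 27.1) in the control compartment, from 80 UMIs and with a free level of 11.4 CPM. In the mutant it was at 824 CPM (814 to 834) from 25628 UMIs, with a free level of 6.92 CPM, a ratio of 37.9 (30.4 to 47.8). That ratio is 5.24 on the log2 scale, and it was 2.87 with doublets kept and 2.90 with each library clustered alone, where control Fabp5 stood at 112 and 110 CPM. Sftpc was at 4886 CPM in control cluster 3, above the 2846 CPM of control endothelial cells from which the free level was set. The part of AT2 RNA in the control Fabp5 value was not tested. Fabp5 has a near-identical processed pseudogene in the annotation, and the sources used here do not say how reads that map to both were counted. Plin2, the lipid droplet coat protein, was 2.28-fold lower in the mutant (59.0 and 25.9 CPM), and Lipa, the lysosomal acid lipase, 3.99-fold lower (45.4 and 11.4 CPM). Soat1, which esterifies cholesterol for storage, was at 25 and 14.8 CPM.

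Shares of cells with a UMI were taken after each cell was thinned to 1500 UMIs, a depth that every cell reached. Fabp5 was seen in 4.05% of the control compartment and 51.5% of the mutant one (9.76% and 86.2% before thinning). In endothelial cells, which had median depths of 4391 and 5281 UMIs, the thinned shares for Fabp5 were 6.79% and 22.8%. Scd2 was seen in 57.3% and 11.4% of compartment cells (89.7% and 44.4% before thinning), and in 7.81% and 8.07% of endothelial cells. Pparg was seen in 0 of 543 control compartment cells after thinning, with an exact 95% binomial upper limit of 0.677% for cells with a UMI, and in 0.894% of mutant cells. For Acaca, Hmgcs1, Idi1, Dhcr7, Pcyt1a, Abca3, Lpin1, Dgat1, Gpam and Fabp4, none of which was called apart, the thinned shares lay in the opposite order to the CPM, and no order is read from them.

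The unnamed mutant clusters agreed in direction with one another, and the AT1-like mutant cells of cluster 10 lay apart from them. Scd2 was at 673 CPM in control cluster 3 and at 382 CPM in mutant cluster 10. In the unnamed mutant clusters it was at 151 CPM in cluster 6, which kept the most AT1 marker RNA (10339 CPM), and at 73.4, 48.6, 36.6 and 22.6 CPM in clusters 5, 8, 7 and 2. Fabp5 ran the other way, at 18.6 CPM in control cluster 3, 149 CPM in mutant cluster 10, and from 669 CPM (cluster 6) to 1013 CPM (cluster 8) in the unnamed clusters. Scd2 and AT1 marker RNA were both lowest in cluster 2, where the gastric-type genes Tff1 and Tff2 led and the AT1 markers summed to 1055 CPM.

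Lpcat1 and Chpt1 were also lower in the unnamed clusters than in either AT1-like cluster. Lpcat1 was at 110 CPM in control cluster 3, 129 CPM in mutant cluster 10 and from 8.60 CPM (cluster 2) to 33.8 CPM (cluster 6) in the unnamed clusters. Chpt1 was at 217 CPM in control cluster 3, 171 CPM in mutant cluster 10 and from 46.3 CPM (cluster 7) to 99.8 CPM (cluster 6) in the unnamed clusters. The low-count genes that marked the mutant were spread unevenly. Elovl6 was highest in cluster 2 (20.7 CPM), next in the cycling cluster 7 (14.5 CPM) and at 1.13 CPM in cluster 6. Pparg (13.6 CPM) and Dgat2 (11.6 CPM) were likewise highest in cluster 2.

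**Figure D2:**
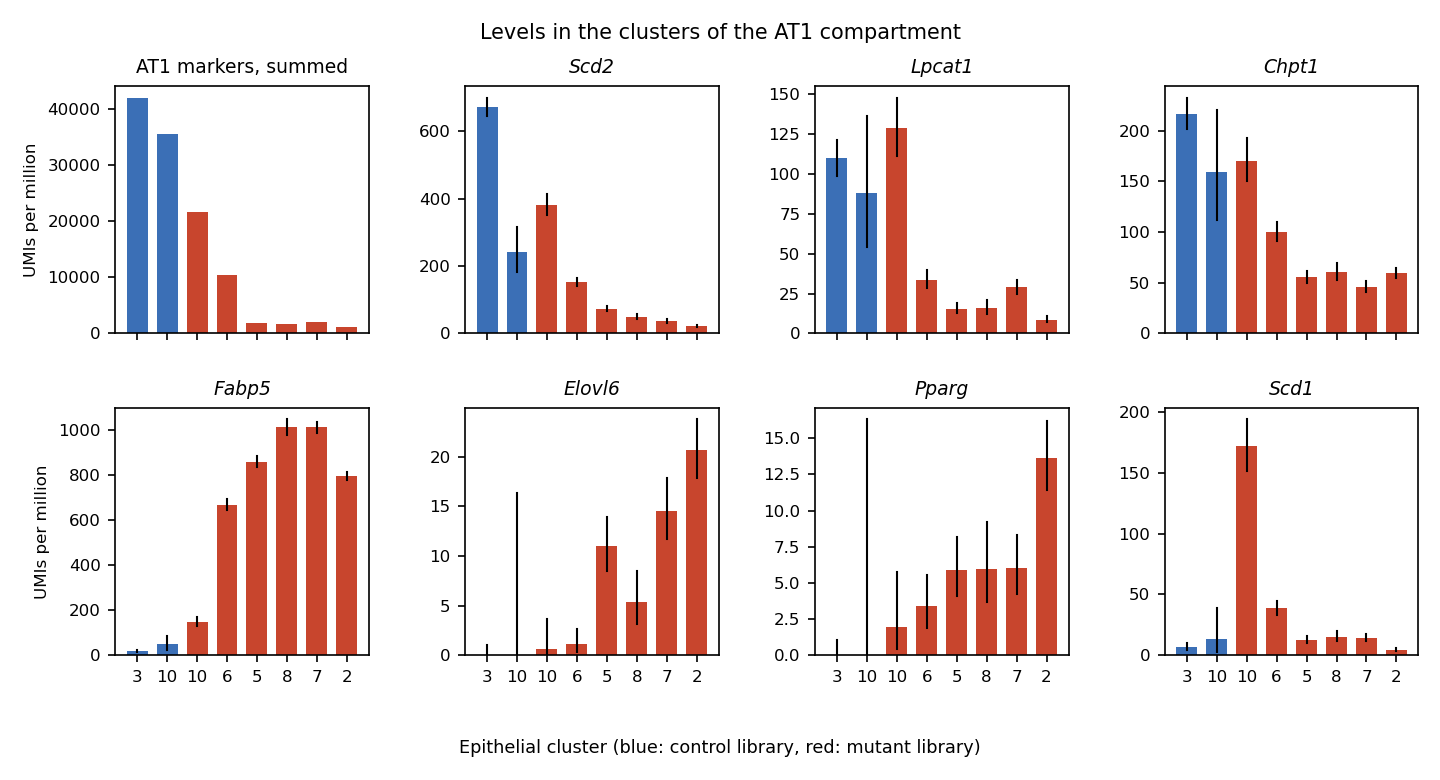
Levels in CPM in each cluster of the AT1 compartment, with a panel for each gene and the summed AT1 markers in the first panel. Blue bars are control cells of clusters 3 and 10. Red bars are mutant cells of clusters 10, 6, 5, 8, 7 and 2. Black lines are exact 95% Poisson intervals. Scd2 steps down from 673 CPM in control cluster 3 to 22.6 CPM in mutant cluster 2, while Fabp5 lies above 660 CPM in every unnamed mutant cluster and Scd1 peaks in mutant cluster 10.

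Within cluster 10, the sole cluster of the compartment with over 30 cells from each library, the largest differences on the control side were gone. Its 31 control and 169 mutant cells held Scd2 at 243 CPM (183 to 316) and 382 CPM (352 to 415), Lpcat1 at 88.4 and 129 CPM, and Chpt1 at 159 and 171 CPM. Fabp5 was at 48.6 CPM (24.3 to 87.0) in the control cells and 149 CPM (130 to 170) in the mutant cells, a ratio of 3.06 (1.68 to 6.23). No lipid gene was at least 2-fold lower in the mutant cells of this cluster, and 4 were at least 2-fold higher, among 21 that passed the filter. The share of all genes in these cells is not given here, so the counts are not read as a trait of lipid genes. The cluster carried AT2 RNA in both libraries, with Sftpc at 25447 CPM in control cells and 21742 CPM in mutant cells, against 4886 CPM in control cluster 3.

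Several of these values were gone or turned over all epithelial cells, of which 65.1% in the control but 8.65% in the mutant were AT2-like. Fabp5 was there at 842 CPM in control cells and 841 CPM in mutant cells, and Scd1 at 383 and 82.5 CPM. The shares of epithelial types in the libraries may also be set by the sort, whose gates the sources used here do not describe.

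The control library shows where the lipid genes normally lie at this age. Over 15 named or numbered cell types with at least 30 control cells, alveolar macrophage-like cells (42 cells) were highest for 11 of the 36 genes, AT2-like cells (1269 cells) for 10, and AT1-like cells (541 cells) for 5. Orders between neighbouring types whose intervals overlap are not meaningful. One further cluster of immune cells, cluster 3, is not named because its leading genes mix neutrophil genes (S100a9, Retnlg) with monocyte genes (Ly6c2, F13a1).

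AT2-like cells were highest for the surfactant genes. Lpcat1 was at 821 CPM in AT2-like cells, with AT1-like cells next at 108 CPM. Abca3 was at 441 CPM, with ciliated-like cells next at 91.7 CPM. Scd1 was at 583 CPM in AT2-like cells, with B cell-like cells next at 126 CPM, and Fasn at 225 CPM, with artery-like cells next at 33.5 CPM. Fabp5 was also highest there (1282 CPM), followed by vein-like cells at 702 CPM. Srebf1, Acaca, Elovl1, Acsl4 and Soat1 completed the 10. Intervals overlapped with the next type for Srebf1 (53.0 and 23.9 CPM), Acaca (30.3 and 24.7 CPM) and Soat1 (170 and 122 CPM). No order is read for these.

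AT1-like cells were highest for Scd2, Chka, Chpt1, Lpin2 and Fdft1. Scd2 was at 646 CPM in AT1-like cells and 273 CPM in AT2-like cells, the next type, so the 2 desaturases were highest in different alveolar cells. Chka was at 241 CPM against 181 CPM in ciliated-like cells, and Chpt1 at 213 CPM against 165 CPM. For Lpin2 (69.0 and 65.7 CPM) and Fdft1 (34.6 and 33.5 CPM) AT1-like and AT2-like cells could not be ranked.

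Alveolar macrophage-like cells were highest for several genes of sterol synthesis, sterol handling and lipid storage, though not for Soat1, Abca1 or Dgat2. Plin2 was at 787 CPM there, Abcg1 at 606 CPM, Lipa at 185 CPM and Pparg at 109 CPM, and the next type for Pparg stood at 9.44 CPM. Hmgcs1 (131 CPM), Idi1, Acly, Lpin1, Insig1, Dhcr7 and Dgat1 were highest there as well, from 42 cells. The next type was close for Acly (113 and 91.6 CPM), Insig1 (72.4 and 69.5 CPM), Dgat1 (36.2 and 34.1 CPM) and Dhcr7 (18.1 and 17.8 CPM). No order is read there. Vein-like cells were highest for Fabp4 (327 CPM), with alveolar macrophage-like cells next at 76.9 CPM.

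**Figure D3:**
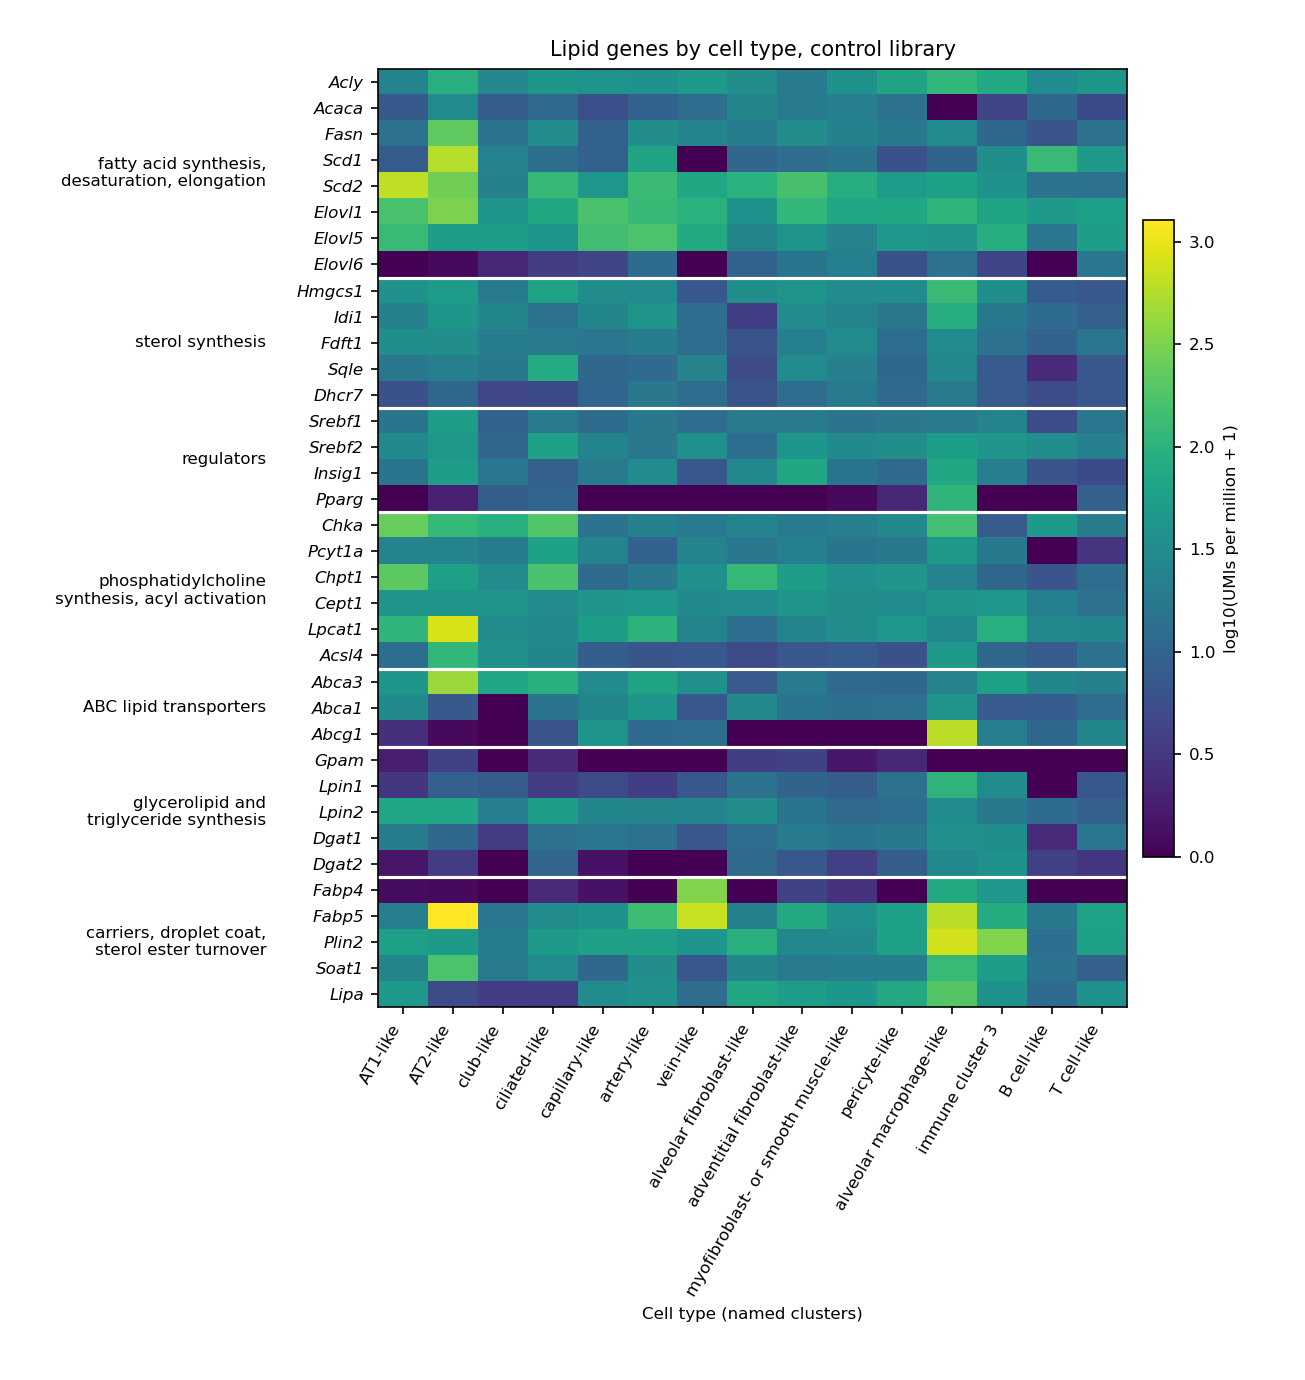
Heat map of the 36 genes (rows, grouped by role) over 15 cell types of the control library (columns), coloured by log10 of CPM plus 1. Bright cells pick out AT2-like cells for Scd1, Lpcat1, Abca3 and Fabp5, AT1-like cells for Scd2, alveolar macrophage-like cells for Abcg1 and Plin2, and vein-like cells for Fabp4.

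In AT2-like cells the lipid genes that passed the filter were within 2-fold between the libraries, except for Scd1. Of 29 genes that passed the filter, 1 was at least 2-fold higher in the mutant and none was 2-fold lower, where 5.47% and 2.93% of all 8806 genes were. The median log2 ratio was 0.09, against 0.20 over all genes. Scd1 was at 583 CPM (568 to 598) in 1269 control cells and 1201 CPM (1150 to 1254) in 218 mutant cells, a ratio of 2.06 (1.96 to 2.17). The libraries filled different AT2-like clusters, since 188 of the 218 mutant cells and 92 of the control cells lay in cluster 9, led by Retnla and Lrg1. In that cluster alone Scd1 was at 945 CPM in control cells and 1184 CPM in mutant cells, a ratio of 1.25 (1.15 to 1.36), and no lipid gene was 2-fold apart. The share of all genes 2-fold apart in that cluster is not given here, so the count is not read as a trait of lipid genes.

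The 8 fatty acid genes summed to 1571 CPM in control and 2417 CPM in mutant AT2-like cells, and most of that gap was Scd1. Acly (91.6 and 93.4 CPM), Acaca (30.3 and 38.0 CPM) and Scd2 (273 and 291 CPM) could not be ranked, since the intervals of their ratios included 1. Fasn was at 225 and 340 CPM, Acsl4 at 113 and 196 CPM, and Soat1 at 170 and 286 CPM, each under 2-fold. Their ratios were 1.51 (1.38 to 1.66), 1.74 (1.53 to 1.96) and 1.69 (1.52 to 1.87). Plin2 had a ratio of 1.48 (1.20 to 1.81), Elovl5 of 1.31 (1.06 to 1.60) and Elovl1 of 1.22 (1.12 to 1.33). Of the 29 genes that passed, 19 were higher in the mutant and 10 lower. The genes of phosphatidylcholine synthesis were within 2-fold, with Pcyt1a at 23.8 and 36.8 CPM, a ratio of 1.54 (1.15 to 2.05). Lpcat1 was at 821 CPM (803 to 839) and 790 CPM (749 to 833), Abca3 at 441 CPM (428 to 454) and 381 CPM (352 to 411), and Fabp5 at 1282 CPM (1259 to 1304) and 1436 CPM (1380 to 1494). Elovl6, Pparg, Abcg1, Gpam, Dgat2, Fabp4 and Lipa did not pass the filter.

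Endothelial cells (589 control and 483 mutant) had 3 of 29 genes at least 2-fold higher in the mutant and none lower, where 5.92% and 1.19% of all 8557 genes were. Fabp5 was at 88.6 CPM (78.1 to 100) in control cells and 229 CPM (212 to 247) in mutant cells, a ratio of 2.58 (2.23 to 3.0), with free levels of 15.9 and 16.2 CPM. Fabp4, a fatty acid binding protein of endothelium and fat cells, was at 19.6 CPM (14.8 to 25.5) and 46.0 CPM (38.5 to 54.6), a ratio of 2.34 (1.70 to 3.27). Acsl4 was at 7.36 and 16.0 CPM, a ratio of 2.18 (1.27 to 3.84).

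The Fabp4 UMIs lay mostly in vein-like cells, 55 of 56 control and 120 of 132 mutant ones, where its level was 327 and 629 CPM. Vein-like cells were 5.26% of control and 7.25% of mutant endothelial cells. Before thinning, Fabp4 was seen in 2.38% of control and 4.35% of mutant endothelial cells. Its intervals, which treat UMIs as independent counts, may therefore be too narrow. For Fabp5 the gap lay in capillary-like cells, at 36.9 and 179 CPM, and less in vein-like cells, at 702 and 833 CPM. Most control capillary-like cells lay in cluster 1 (340 control and 9 mutant cells) and most mutant ones in cluster 2 (4 and 264). In the capillary-like clusters that held over 30 cells of each library, Fabp5 was at 22.1 and 46.3 CPM in cluster 3, from 10 and 22 UMIs, and at 87.3 and 248 CPM in the cycling cluster 4. The control's cluster shares were also imposed on both libraries, over clusters with at least 20 cells of each. Capillary-like clusters 1 and 2 were left out by that rule. The log2 ratio of Fabp5 was then 0.76, under the 2-fold limit, and it does not cover the cells of clusters 1 and 2.

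The remaining endothelial genes were within 2-fold. Hmgcs1 was at 31.2 and 56.8 CPM, the widest of the sterol genes. Scd1 had 42 control and 7 mutant UMIs, 1 short of the filter, at 14.7 and 2.44 CPM with free levels of 7.37 and 1.69 CPM. The AT2 marker sum in these cells was 3238 CPM in control cells and 245 CPM in mutant cells, and its part in the Scd1 value was not tested. Acaca, Elovl6, Pparg, Gpam, Lpin1 and Dgat2 did not pass either.

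Mesenchymal cells (1090 control and 1016 mutant) had 2 of 33 genes at least 2-fold higher and 1 at least 2-fold lower, where 5.36% and 1.61% of all 10716 genes were. Chpt1 was at 45.6 CPM (40.7 to 50.8) in control cells and 91.4 CPM (83.9 to 99.3) in mutant cells, a ratio of 2.01 (1.74 to 2.31). Its level was higher in the mutant in alveolar fibroblast-like cells (119 and 189 CPM) and in myofibroblast- or smooth muscle-like cells (35.5 and 74.0 CPM). Fabp4 had 10 control and 54 mutant UMIs (1.42 and 8.96 CPM), a ratio of 6.31 (3.18 to 13.9), of which 9 and 44 lay in myofibroblast- or smooth muscle-like cells. Vein markers summed to 233 CPM in control and 283 CPM in mutant mesenchymal cells, and their part in the Fabp4 value was not tested.

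Abca3 was at 10.4 and 4.81 CPM in mesenchymal cells, 2.15-fold lower in the mutant, with free levels of 4.36 and 1.19 CPM. AT2 markers summed to 2527 CPM in control and 431 CPM in mutant mesenchymal cells, and with free RNA subtracted the log2 ratio of Abca3 was -0.73, under the 2-fold limit. Dhcr7 (log2 ratio -0.99) and Fdft1 (-0.95) lay just inside it. The libraries also differed in cell types. Clusters 2 and 3, led by Fgf9 and Bdnf and by Htra1 and Pdgfra, held 301 and 254 control cells and 1 and 5 mutant cells. Cluster 5, led by Pappa2 and Fgf18, held 2 control and 205 mutant cells, and the unnamed cluster 6, led by Ibsp and Stc1, held 1 and 187. Clusters 2, 3 and 5 are among the cells called myofibroblast- or smooth muscle-like above. With the control's cluster shares imposed on both libraries, over clusters with at least 20 cells of each, the log2 ratio of Chpt1 was 0.62. That rule left out clusters 2, 3, 5, 6 and 12, so the value does not cover their cells. Pparg, Abcg1 and Gpam did not pass the filter.

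Immune cells (337 control and 177 mutant) had the highest proportion of lipid genes apart outside the epithelium, and 4 of the 5 carrier and droplet genes were among them. Of 22 genes that passed, 4 were at least 2-fold higher in the mutant and 1 at least 2-fold lower, where 6.17% and 4.33% of all 5654 genes were. Fabp4 was at 15.8 CPM (10.6 to 22.5) in control cells and 105 CPM (86.8 to 126) in mutant cells, a ratio of 6.64 (4.42 to 10.3). Fabp5 was at 122 and 370 CPM, a ratio of 3.04 (2.58 to 3.59). Soat1 was at 33.7 and 80.0 CPM, a ratio of 2.38 (1.70 to 3.33), and Lipa at 44.7 and 104 CPM, a ratio of 2.33 (1.74 to 3.11). Plin2, the remaining gene of that group, was at 178 and 210 CPM.

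The make-up of the immune cells differed between libraries. Alveolar macrophage-like cells were 12.5% of control and 24.9% of mutant immune cells, and B cell-like cells 41.8% and 16.9%. Within alveolar macrophage-like cells (42 control and 44 mutant) Fabp4 was at 76.9 CPM (44.8 to 123) and 491 CPM (405 to 590), a ratio of 6.38 (3.82 to 11.3), and Fabp5 at 611 CPM (512 to 723) and 1443 CPM (1292 to 1606), a ratio of 2.36 (1.93 to 2.91). Lipa and Soat1 were under 2-fold within these cells, at 185 and 357 CPM and at 122 and 224 CPM. Plin2 was at 787 and 646 CPM and Abcg1 at 606 and 512 CPM. The 2 fatty acid binding proteins were 2-fold apart within macrophage-like cells as well as in the lineage.

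Scd1 was the immune gene on the control side, at 67.3 CPM (56.2 to 80.1) and 20.4 CPM (13.0 to 30.7), 3.29-fold lower in the mutant. In the control library B cell-like cells held most of it, at 126 CPM, against 91.2 CPM in the B cell-like cells of the mutant. The control's cluster shares were also imposed on both libraries, over clusters with at least 20 cells of each. The log2 ratio of Scd1 was then -0.87, under the 2-fold limit. That rule left out a B cell-like cluster (43 control and 3 mutant cells) and a cluster named for dendritic cells (17 and 41). Acaca, Fasn, Elovl6, Fdft1, Sqle, Dhcr7, Srebf1, Insig1, Pparg, Pcyt1a, Chpt1, Abca1, Gpam and Dgat2 did not pass the filter in immune cells.

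**Figure D4:**
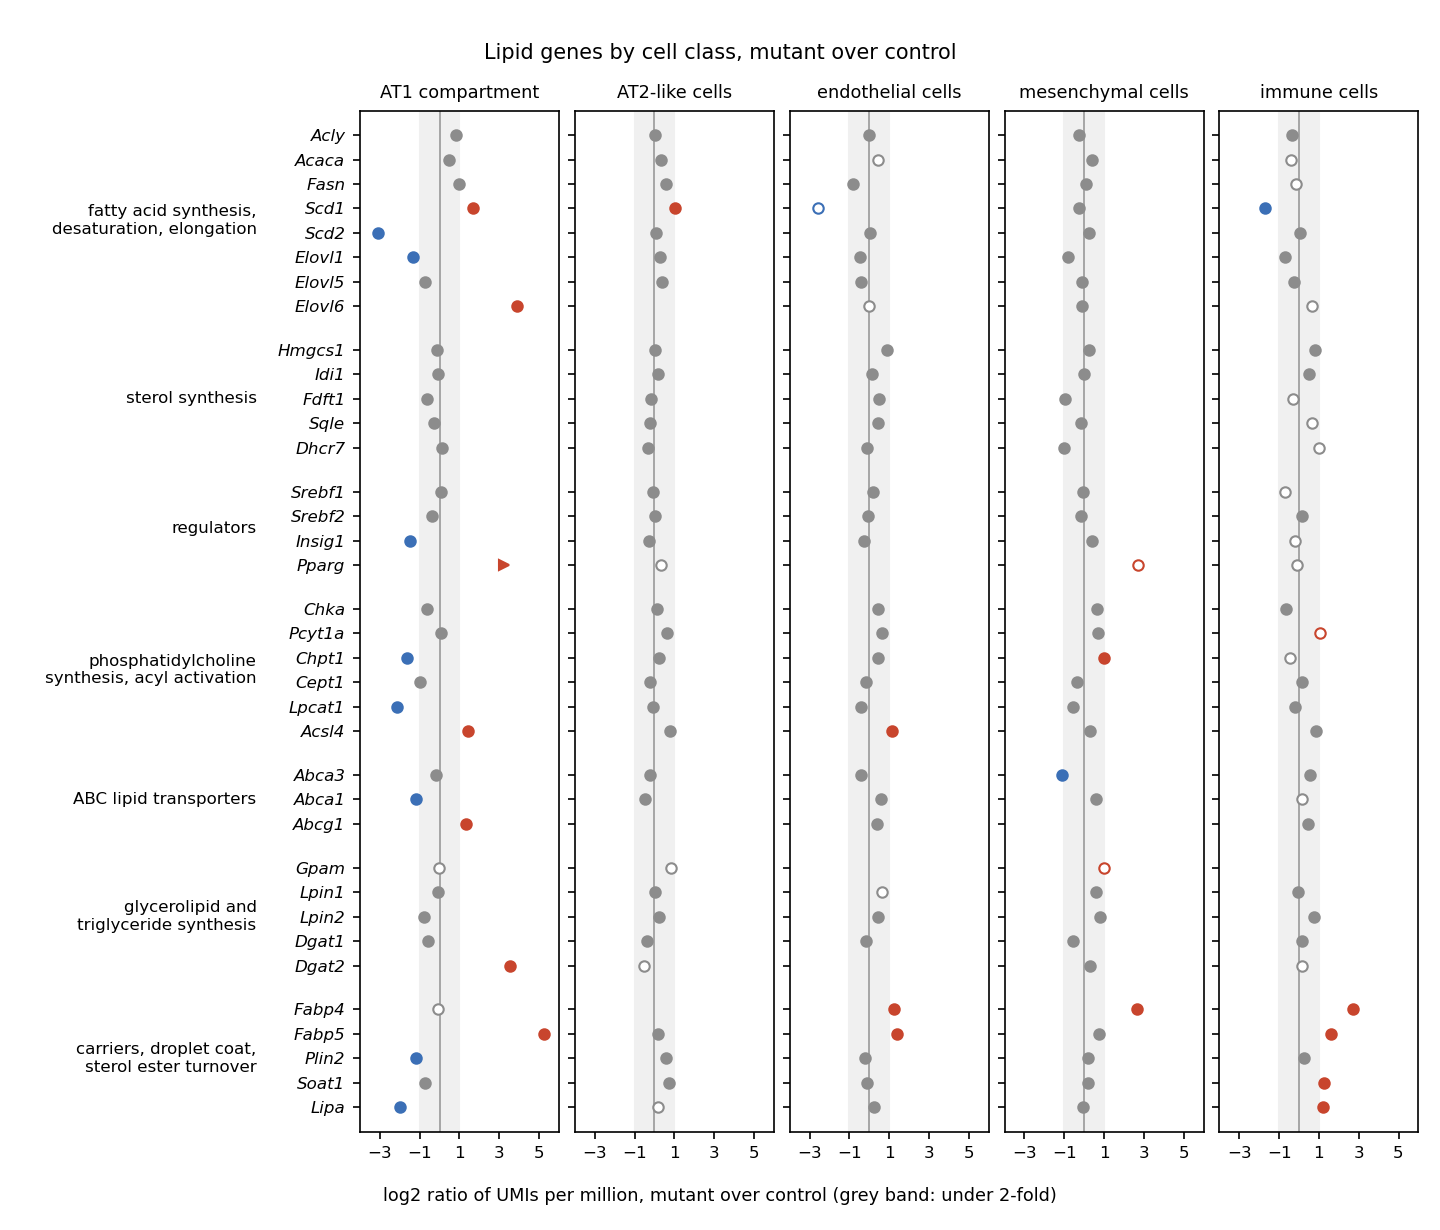
Log2 ratio of mutant over control for each of the 36 genes in 5 cell classes, with filled points for genes with at least 50 UMIs, open points for genes with fewer, a triangle for a lower bound, and a grey band for ratios under 2-fold. In the AT1 compartment 15 of 34 genes that passed lie outside the band, 7 to the right and 8 to the left. Of all 11694 genes tested there, 22.2% were at least 2-fold higher and 11.5% at least 2-fold lower. Fabp5 lies to the right of the band in the compartment, in endothelial cells and in immune cells.

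Across the classes, Fabp5 had log2 ratios of 5.24, 0.16, 1.37, 0.77 and 1.60 in the AT1 compartment, AT2-like, endothelial, mesenchymal and immune cells. The AT2-like value lay below the median of all genes there (0.20). The endothelial one was 0.76 with cluster shares held over the clusters with at least 20 cells of each library. Fabp4 was 2-fold higher in each of the 3 classes where it passed the filter. In mesenchymal and immune cells it passed mainly through mutant UMIs, so the filter favours a higher mutant level there. Fabp5 was also 2-fold higher in 3 classes, and no lipid gene besides these was 2-fold higher in as many. Scd2, by contrast, was within 2-fold in AT2-like, endothelial, mesenchymal and immune cells, with log2 ratios of 0.09, 0.05, 0.25 and 0.06. These classes share their 2 libraries, so they are not independent of each other.

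Other genes of lipid metabolism were described from 6 lists, chosen like the 36 with earlier results of these data known. In the AT1 compartment, 3 of 19 genes of phospholipid synthesis and remodelling were at least 2-fold higher in the mutant and 3 at least 2-fold lower. Agpat4, an acyltransferase, was at 206 and 23.1 CPM and Prdx6, which has phospholipase activity and takes part in surfactant turnover, at 2158 and 349 CPM, 8.90-fold and 6.19-fold lower. Among 13 genes of lipid droplets and lipolysis, 1 was higher and 2 were lower. The 2 lower were Mgll, monoacylglycerol lipase, at 67.9 and 3.70 CPM (18.4-fold), and Lpl, lipoprotein lipase, at 26.9 and 1.61 CPM (16.7-fold).

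Of 11 further genes of fatty acid synthesis and activation, 4 were higher and 2 lower. The acyl-CoA synthetases Acsl3 (2.17 and 18.4 CPM, ratio 8.47, 4.27 to 19.7) and Acsl1 (4.08 and 23.0 CPM, ratio 5.65) were on the mutant side, as Acsl4 was. Of 18 further genes of sterol synthesis and uptake, 1 was higher and 4 were lower, with Fdps at 78.8 and 27.0 CPM (2.92-fold lower). Of 14 genes of lipid sensing and sterol handling, 4 were higher and 2 lower. Cebpa, a transcription factor of fat cells and AT2 cells, was at 1.90 CPM in the control, where its free level was 1.76 CPM, and at 10.1 CPM in the mutant. Of 14 genes of fatty acid oxidation, 2 were higher and 2 lower, with Ppargc1a at 2.17 and 11.6 CPM and Cpt1a, which admits fatty acids to mitochondria, at 15.5 and 37.7 CPM (ratio 2.43, 1.87 to 3.23). These shares are to be read against the 22.2% and 11.5% of all genes in the compartment.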

How the data were processed

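The deposited values were raw UMI counts per gene and barcode. The authors' processing is known as Cell Ranger, Seurat and mm10 per the submitters' processing notes, with versions, annotation and filters not given in the sources used here. Barcodes were kept if they had 500 or more genes and a mitochondrial share below 10% (4141 control and 4418 mutant). Doublets were scored per library with 2 simulated doublets per cell at an expected 0.8% per 1000 cells. This removed 137 (3.31%) and 156 (3.53%) cells, and 60.4% and 58.2% of simulated doublets were marked, so some remain. Cells of both libraries were clustered together (scanpy 1.11.5, leidenalg 0.10.2, python 3.11.15, scipy 1.17.1; 2000 variable genes without lipid genes, 30 components, 20 neighbours, resolution 1, seed 1), first by lineage and then within it. A cluster took a name, read as likeness, with a mean log2 fold of at least 1.5 over its markers and at least 3 markers in 10% of cells. Clusters holding markers of another lineage (38 control and 65 mutant cells) were left out. Counts were summed per class and library and divided by the class total. No replicate existed, so no test was made. Code was tested on simulated counts.

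All 36 genes were accounted for in each class, and named in full where 2-fold apart. From the 6 further lists, the genes named were those with the widest ratios. The genes and lists were chosen with earlier results of these data known. The naming thresholds, a second naming pass, the doublet threshold, 4 alternatives and the limit of 30 cells for ordering cell types (50 in the design) were chosen after seeing the data. The design also asked for 50 cells in both libraries to compare a finer type between them. Alveolar macrophage-like, vein-like and B cell-like cells and epithelial cluster 10 fell short of that. Gene positions are from GENCODE vM21 (GRCm38) and promoters from RefSeq (GRCm38.p6).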

Additional observations from a re-analysis of the deposited data

Results flagged for a closer look

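Genes that were at least 2-fold apart in opposite directions in different cell classes are given here. In none of these was the difference between classes tested, since each class has 1 library per genotype. Scd1 had a log2 ratio of 1.66 in the AT1 compartment and 1.04 in AT2-like cells, and -1.72 in immune cells. Chpt1 had a log2 ratio of 1.00 in mesenchymal cells and -1.65 in the AT1 compartment. Lipa had a log2 ratio of 1.22 in immune cells and -2.0 in the AT1 compartment. The cell types that make up the immune, mesenchymal and compartment classes differed between the libraries.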

How the results depend on the processing

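Of 120 recounts of the number of lipid genes at least 2-fold apart, 94 stayed within 1.5 times the number reported. A count of 0 that stayed 0 was scored as unchanged, and the reported count was 0 for genes lower in AT2-like and in endothelial cells. Only numbers were compared, so the genes behind an unchanged count may differ. Where cluster shares were held, clusters with fewer than 20 cells of either library were left out. No paired analysis was possible because each group is 1 library. In the AT1 compartment the 7 genes higher and 8 lower in the mutant became 5 and 0 in AT1-like clusters alone (541 control and 173 mutant cells), 4 and 0 in cluster 10 alone, and 4 and 12 over all epithelial cells. Shares of all genes are not given for these choices of cells or for the settings below, so the counts are not read as a trait of lipid genes. In AT2-like cells the 1 higher gene became 0 after centring on the median of all genes and in cluster 9 alone. In endothelial cells 1 gene was lower with no count filter and 1 higher with at least 200 UMIs. In mesenchymal cells the 2 higher genes became 1 after centring, with a mean over cells, with at least 200 UMIs, with doublets kept and with cluster shares held, and 4 with no filter or with under 5% mitochondrial counts. The 1 lower gene there became 2 after centring or with under 5% mitochondrial counts, and 0 with at least 200 UMIs, doublets kept or free RNA subtracted. In immune cells the 4 higher genes became 2 with at least 200 UMIs, under 5% mitochondrial counts, cluster shares held or macrophage-like cells alone, and the 1 lower gene became 0 with at least 200 UMIs or macrophage-like cells alone.

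Some log2 ratios of the AT1 compartment changed sign. Scd1 was at -0.88 when doublet calls were kept, -1.52 when the libraries were clustered separately and -2.21 over all epithelial cells. In the former 2 settings the control compartment held 626 and 612 cells and Sftpc stood there at 37068 and 30029 CPM, and Fabp5 was at 2.87 and 2.90. Lpcat1 was at 0.24 in AT1-like clusters alone and 0.54 in cluster 10, where Scd2 was at 0.65 and Chpt1 at 0.10. Over all epithelial cells Acsl4 was at -0.94, Fabp5 at -0.0015 and Abca1 at 0.013. The cause of these changes was not tested.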
